A study of Mus musculus with 6 samples.

Results

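The genes described here are 34 interferon-stimulated antiviral genes that lie outside the Ifit family, measured in mouse bone marrow-derived macrophages. They were chosen by symbol from a list of known antiviral genes, with earlier results of these data known. All 34 were found among the 25124 genes of the expression table. Bone marrow-derived macrophages are grown from marrow precursors with the growth factor M-CSF. In the 3 M2 libraries, cells of 8-week-old wild-type C57BL/6 mice, cultured for 7 days, received 10 ng/ml IL-4 beside 20 ng/ml M-CSF for 4 h. In the 3 M0 libraries, cells of the same strain, age and culture received 20 ng/ml M-CSF alone. The labels name no added interferon, virus or microbial product in either group. How many mice were used, and whether marrow was pooled, is not given in the sources used here, so p-values measure only the spread between these libraries, which may be technical.

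Type I interferons bind the receptor chains IFNAR1 and IFNAR2, whose kinases JAK1 and TYK2 activate the transcription factor complex ISGF3, which includes STAT2 and IRF9. It binds the interferon-stimulated response element (ISRE) in the promoters of many genes. The products include sensors of foreign RNA and DNA, OAS enzymes that switch on an RNA-degrading nuclease, MX GTPases that trap viral particles, and ADP-ribosyltransferases of the PARP family. Resting macrophages keep many of these transcripts at a low tonic level without infection. IL-4 acts through a separate receptor and the factor STAT6.

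Promoter sequences from RefSeq were examined for the ISRE core, to which ISGF3 binds. RefSeq windows of 300 bases (250 before the start of the gene and 50 after it, GRCm38.p6 build) were matched for 24 of the 34 genes. The 10 genes Dhx58, Zbp1, Oas2, Mx1, Mx2, Parp9, Parp14, Usp18, Ifi27l2a and Rtp4 were not matched. The core searched was 2 copies of GAAA with any 2 bases between them (2 copies of TTTC on the other strand), and it was present in 11 of the 24 windows (45.8%), against 3.44% of all 32851 RefSeq promoter windows of the same length. The stretches printed here run from 150 bases before the start to 30 bases after it, 5′ to 3′ on the strand of the gene, with every match to the core in capitals. They are those of Isg15, which had 3 overlapping matches, and of 3 pairs of relatives or neighbours, shown so that their windows can be set beside the different sizes of their changes.
Isg15 (chr4:156200789-156200968, minus strand): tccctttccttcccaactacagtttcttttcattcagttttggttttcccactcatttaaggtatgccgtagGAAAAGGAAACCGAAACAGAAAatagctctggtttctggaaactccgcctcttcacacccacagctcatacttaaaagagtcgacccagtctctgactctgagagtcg
Rsad2 (chr12:26456423-26456602, minus strand): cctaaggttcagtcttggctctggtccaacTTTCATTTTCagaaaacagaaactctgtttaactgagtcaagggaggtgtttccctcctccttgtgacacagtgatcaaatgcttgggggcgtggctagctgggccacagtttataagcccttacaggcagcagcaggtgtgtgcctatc
Cmpk2 (chr12:26469065-26469244, plus strand): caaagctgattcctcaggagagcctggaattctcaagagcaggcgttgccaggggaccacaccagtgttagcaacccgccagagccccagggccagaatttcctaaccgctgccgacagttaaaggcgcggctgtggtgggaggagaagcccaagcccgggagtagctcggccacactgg
Oas3 (chr5:120777630-120777809, minus strand): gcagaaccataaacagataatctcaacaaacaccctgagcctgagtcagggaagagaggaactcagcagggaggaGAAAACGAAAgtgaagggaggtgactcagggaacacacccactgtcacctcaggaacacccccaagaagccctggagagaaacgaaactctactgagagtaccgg
Oas1a (chr5:120907496-120907675, minus strand): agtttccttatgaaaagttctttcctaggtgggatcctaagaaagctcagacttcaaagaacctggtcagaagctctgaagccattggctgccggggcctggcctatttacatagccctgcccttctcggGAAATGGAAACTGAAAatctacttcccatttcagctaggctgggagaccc
Ifitm3 (chr7:141010715-141010894, minus strand): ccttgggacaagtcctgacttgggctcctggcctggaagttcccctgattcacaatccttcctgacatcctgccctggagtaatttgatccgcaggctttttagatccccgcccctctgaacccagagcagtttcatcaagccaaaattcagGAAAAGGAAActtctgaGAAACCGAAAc
Ifitm2 (chr7:140955932-140956111, minus strand): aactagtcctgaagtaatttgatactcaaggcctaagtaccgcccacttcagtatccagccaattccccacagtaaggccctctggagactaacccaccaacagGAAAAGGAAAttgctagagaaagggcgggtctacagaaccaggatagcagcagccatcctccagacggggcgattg
The core was found in both members of the Oas1a and Oas3 pair and of the Ifitm3 and Ifitm2 pair. Rsad2 had 1 match, and no match lay in the window of its neighbour Cmpk2.

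The libraries held 16986733 to 19019896 reads in genes in M2 and 16913185 to 18624197 in M0. All 6 genes fixed as a check of the IL-4 response rose in M2, among them Arg1 (1009 ± 7.40 TPM in M2, 1.55 ± 0.328 TPM in M0; SD, n = 3 each), the arginase of alternatively activated macrophages. The macrophage markers Adgre1, Csf1r, Cd68 and Lyz2 averaged 534 to 12051 TPM in M2 and 536 to 13744 TPM in M0. Siglech, a defining marker of plasmacytoid dendritic cells, which make large amounts of interferon, was near 0 (0.0453 ± 0.0335 TPM in M2 and 0.0730 ± 0.0406 TPM in M0). The 11 T and NK cell markers found summed to 0.428 ± 0.112 TPM in M2 and 0.395 ± 0.1595 TPM in M0. M0 replicate 2 stood apart: the chi-square per degree of freedom of its reads was 9.52 and 10.7 against the other 2 M0 libraries, which differed from each other by 2.31, while pairs of M2 libraries gave 1.54 to 1.73. Pairs across the groups gave 119 to 146. Of the 9 macrophage markers 5 fell and 3 rose (3 fell and 4 rose after median scaling). The shares over all genes tested were 45.3% and 17.7% (28.7% and 28.6% after median scaling). Among those that fell were Fcgr1, an Fc receptor gene (20.6 ± 1.05 TPM in M2, 128 ± 7.55 TPM in M0), Cd14 (65.4 ± 1.63 TPM in M2, 158 ± 3.83 TPM in M0) and C1qa (286 ± 3.64 TPM in M2, 472 ± 49.5 TPM in M0). The 8 neutrophil markers summed to 37.3 ± 4.44 TPM in M2 and 41.0 ± 3.81 TPM in M0, most of it from S100a8, S100a9 and Ngp. None of the 5 that were tested passed the threshold. The summed level of the 8 plasmacytoid markers was 97.8 ± 2.58 TPM in M2 and 95.3 ± 1.011 TPM in M0, most of it from Irf8 and Tcf4, which macrophages also express. Other lists held genes that moved. Of the 4 tested fibroblast and endothelial markers Pecam1, an adhesion molecule also found on leukocytes, rose (10.4 ± 0.198 TPM in M2, 0.407 ± 0.0386 TPM in M0). Kdr, a VEGF receptor gene, had 0.218 ± 0.0370 TPM in M2 and 2.78 ± 0.249 TPM in M0, Col1a1 and Col1a2 fell (log2 fold changes of -0.41 and -0.25), and the summed level of that list was 18.0 ± 0.376 TPM in M2 and 13.5 ± 0.349 TPM in M0. Siglecf, the tested gene of the mast cell, basophil and eosinophil list, rose (2.64 ± 0.224 TPM in M2, 1.57 ± 0.0221 TPM in M0), while Mcpt8, Tpsb2, Prss34 and Epx of that list were at 0 in all 6 libraries. The part of cell makeup in the results was not tested. In bulk RNA, fewer cells that express a gene and less RNA per cell cannot be told apart.

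Transcripts of the antiviral genes were lower after 4 h of IL-4 in nearly every case. Of the 34 genes, 33 fell in M2 and none rose, by limma-trend on log2(TPM + 1) with Benjamini-Hochberg adjustment over 11235 genes and a threshold of 0.05. TPM is a level scaled to library depth and transcript length. In the same fit 45.3% of all genes tested fell and 17.7% rose. A fall of at least 1 on the log2 scale was found for 24 of the 34, against 4.61% of all genes tested, and a fall of at least 2 for 8 of the 34, against 0.525%. Their median log2 fold change was -1.20, and that of all genes tested was -0.15. Since the 34 genes were chosen with earlier results of these data known, these contrasts are descriptions. All 34 genes were tested, for which a level of 1 TPM in 3 libraries was required. Mx2 and Ifi44 reached 1 TPM in M0 libraries alone, so that their fall was fixed by this filter, and Oasl1 reached it in 2 of the M2 libraries. Without Mx2 and Ifi44, 31 of 32 genes fell, 22 of them by at least 1 and 8 by at least 2. In all 34, every M2 library lay below every M0 library, as did 49.8% of all genes tested. Summed over the 34 genes, the level was 1267 ± 40.1 TPM in M2 and 2582 ± 131 TPM in M0, so that 49.1% of the M0 level was left.

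The fall of the median over all genes bears on the small changes. Dividing each library by its median-ratio factor moved the median log2 fold change of all genes by 0.15, to -0.00, after which 28.7% of genes fell and 28.6% rose. Under that scaling 32 of the 34 antiviral genes fell and none rose, with a median of -1.03. A fall of at least 1 was then found for 18 of the 34, against 3.35% of all genes tested, and of at least 2 for 5 of the 34, against 0.383%. The gene that lost its call was Zbp1. Without M0 replicate 2, and without that scaling, 34 of the 34 fell, as did 5239 of all 11235 genes tested. The gene gained there was Ifitm2, which had a log2 fold change of 0.06 after median scaling.

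**Figure D1:**
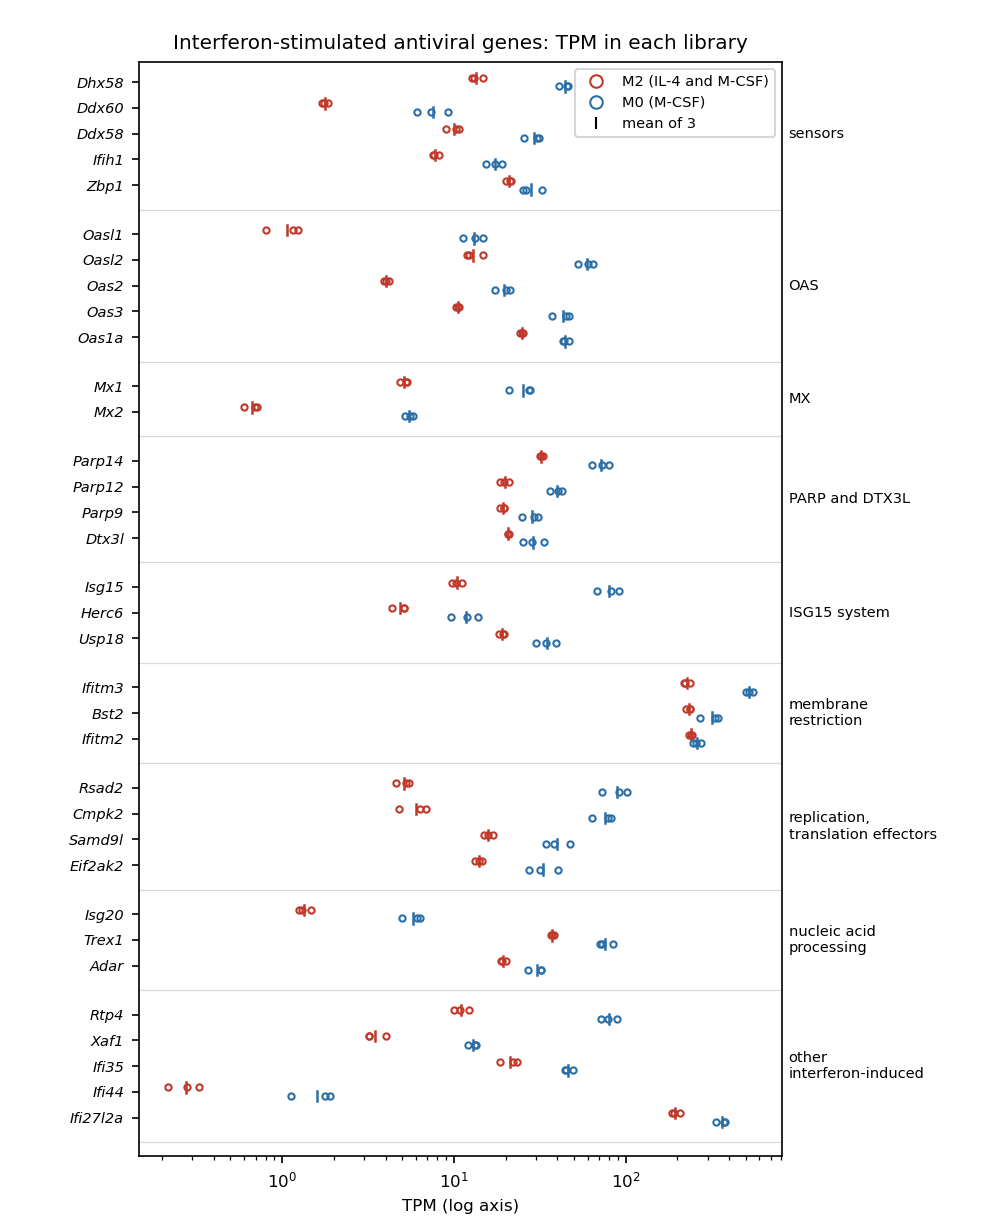
Level of each of the 34 genes in TPM (log axis) in each of the 3 M2 libraries (red) and 3 M0 libraries (blue), with vertical bars at the mean of 3, ordered by class. Every red point of a gene lies left of its blue points, widely for Rsad2 and Cmpk2 and narrowly for Ifitm2.

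The helicase sensors of viral RNA all fell, by 2.22-fold to 4.27-fold, and the nucleic acid sensor Zbp1 fell least. Ddx58 encodes RIG-I, which recognises short double-stranded RNA with a 5′ triphosphate. It had 8.96, 10.7 and 10.3 TPM in the M2 libraries, against 30.5, 31.1 and 25.6 TPM in the M0 libraries. The mean was 2.91-fold lower in M2 (log2 fold change of TPM + 1 -1.45, SE 0.0875, adjusted p = 2.5e-07), and the groups were far apart. Ifih1 encodes MDA5, which binds long double-stranded RNA, and had 7.59, 7.61 and 8.19 TPM in M2 libraries, against 17.4, 19.1 and 15.4 TPM in M0 libraries. Its mean was 2.22-fold lower in M2 (adjusted p = 1.5e-06). Dhx58 encodes LGP2, a helicase that lacks the signalling domains of the other two and modulates MDA5 and RIG-I. It averaged 13.5 ± 1.05 TPM in M2 and 44.1 ± 2.78 TPM in M0, 3.27-fold lower in M2 (adjusted p = 1.8e-08). Ddx60, a related helicase, was the least abundant sensor at 1.77 ± 0.0683 TPM in M2 and 7.55 ± 1.61 TPM in M0, and was 4.27-fold lower in M2 (adjusted p = 1.5e-06).

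Zbp1 (chr2:173213736-173218922, minus strand), a sensor of Z-form nucleic acids that triggers necroptosis, changed least of this class. It had 21.3, 20.0 and 21.5 TPM in M2 libraries, against 32.4, 26.3 and 25.1 TPM in M0 libraries. The libraries did not overlap, and the mean was 1.33-fold lower in M2 (log2 fold change -0.39, SE 0.0864, adjusted p = 0.00272). After median scaling the log2 fold change was -0.23 and the adjusted p = 0.0572. Its share of the summed level of the 5 sensors was 38.8 ± 1.72% in M2 and 22.2 ± 2.04% in M0. In M2 it was thereby the most abundant sensor transcript per length, a place that Dhx58 held in M0. The 5 sensors together kept 42.9% of their M0 level (54.0 ± 2.24 TPM in M2, 126 ± 11.2 TPM in M0).

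The OAS class fell further, with a median log2 fold change of -2.03, against -1.45 for the sensors. OAS enzymes make 2′-5′-linked oligoadenylates on binding double-stranded RNA, which activate RNase L. Oas2 averaged 4.03 ± 0.142 TPM in M2 and 19.5 ± 2.09 TPM in M0, a 4.85-fold lower mean (adjusted p = 1.4e-08). Oas3 had 10.3, 10.6 and 10.8 TPM in M2 libraries, against 46.8, 44.8 and 37.3 TPM in M0 libraries. Its mean was 4.07-fold lower in M2 (log2 fold change -1.92, adjusted p = 1.6e-08). Oas1a (chr5:120896257-120907525, minus strand), a mouse homologue of human OAS1, had 24.1, 24.98 and 25.4 TPM in M2 libraries, against 46.6, 43.6 and 43.0 TPM in M0 libraries. It was 1.79-fold lower in M2 (log2 fold change -0.81, SE 0.0519, adjusted p = 3.7e-07), so that the groups were well apart but closer than those of Oas3.

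The OAS-like genes of the class encode relatives with ubiquitin-like domains. Oasl1, which in mice limits translation of Irf7, had 0.807, 1.23 and 1.15 TPM in M2 libraries, against 14.7, 13.2 and 11.2 TPM in M0 libraries. Its mean was 12.3-fold lower in M2 (log2 fold change -2.76, adjusted p = 1.4e-08), with 25 to 40 reads in an M2 library. Oasl2, which retains synthetase activity in mice, averaged 12.95 ± 1.56 TPM in M2 and 59.2 ± 5.77 TPM in M0, a 4.57-fold lower mean (adjusted p = 2.4e-08). The 5 genes lie on chromosome 5, with Oasl1 and Oasl2 in a separate cluster from Oas1a, Oas2 and Oas3. The class kept 29.8% of its M0 level (53.4 ± 2.59 TPM in M2, 179 ± 16.2 TPM in M0), and its makeup shifted. Oas1a was 46.5 ± 1.2% of the OAS level in M2 and 24.9 ± 1.52% in M0, while Oasl2 was 24.2 ± 1.77% in M2 and 33.0 ± 0.297% in M0. Oas1a, Oas1b and Oas1g are close paralogs, and how the authors' counting divided reads among them is not given in the sources used here, so their levels are uncertain.

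Of the MX genes, Mx1 fell. Mx2 was also lower in M2, but it reached 1 TPM in M0 libraries alone, so that its fall was fixed by the filter. MX proteins are dynamin-like GTPases that form rings around viral nucleoprotein. Mx1 had 5.24, 5.31 and 4.88 TPM in M2 libraries, against 27.8, 27.2 and 20.8 TPM in M0 libraries. The mean was 4.91-fold lower in M2 (log2 fold change -2.09, adjusted p = 5.2e-08). The C57BL/6 strain is known to carry a deletion in Mx1 that removes its antiviral activity, so the transcript is no measure of MX1 function here. The Mx2 transcript is not read as a measure of MX2 function either. Mx2 had 0.597, 0.694 and 0.711 TPM in M2 libraries, against 5.74, 5.53 and 5.19 TPM in M0 libraries. It was 8.22-fold lower in M2 (log2 fold change -1.96, adjusted p = 1.7e-08) and had 21 to 28 reads in an M2 library. Its fitted change is the smaller of the pair although its ratio is the larger, because the pseudocount of 1 compresses low levels. The class kept 18.9% of its M0 level.

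The PARP class changed least of the 4 classes of sensors, OAS, MX and PARP genes, with a median log2 fold change of -0.75. PARP9, PARP12 and PARP14 are ADP-ribosyltransferases or their relatives, and DTX3L is an E3 ubiquitin ligase that works in a complex with PARP9. Parp14 had 31.5, 31.9 and 33.0 TPM in M2 libraries, against 72.3, 80.3 and 63.5 TPM in M0 libraries. It was 2.24-fold lower in M2 (log2 fold change -1.13, adjusted p = 4.9e-07). Parp12 averaged 19.7 ± 1.14 TPM in M2 and 39.7 ± 3.10 TPM in M0, 2.01-fold lower in M2 (adjusted p = 7.9e-07). The partners Parp9 and Dtx3l changed by less: Parp9 had 18.6, 19.6 and 19.5 TPM in M2 libraries, against 29.2, 30.7 and 25.04 TPM in M0 libraries. Its mean was 1.47-fold lower in M2 (adjusted p = 1.4e-04). Dtx3l had 21.0, 20.6 and 20.5 TPM in M2 libraries, against 28.5, 33.3 and 25.2 TPM in M0 libraries, a 1.4-fold lower mean (adjusted p = 9.9e-04). Their transcripts run on opposite strands of chromosome 16 and overlap by 558 bases, and the sources used here do not say that reads were counted by strand, so reads in the overlap cannot be divided between them.

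The log2 fold changes of the 4 PARP class genes (-1.13 to -0.46) lay above the Mx1 value and above 4 of the 5 OAS values. They also lay above the Mx2 value, but the fall of Mx2 was fixed by the filter. With a pseudocount of 5, Parp14 (-1.05) lay below Mx2 (-0.89). The sensors (-1.64 to -0.39) overlapped with the OAS class (-2.76 to -0.81), through Oas1a. These ranges are a description of single genes, and no test was made between the classes. The PARP class kept 54.3% of its M0 level (91.8 ± 1.84 TPM in M2, 169 ± 17.4 TPM in M0).

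**Figure D2:**
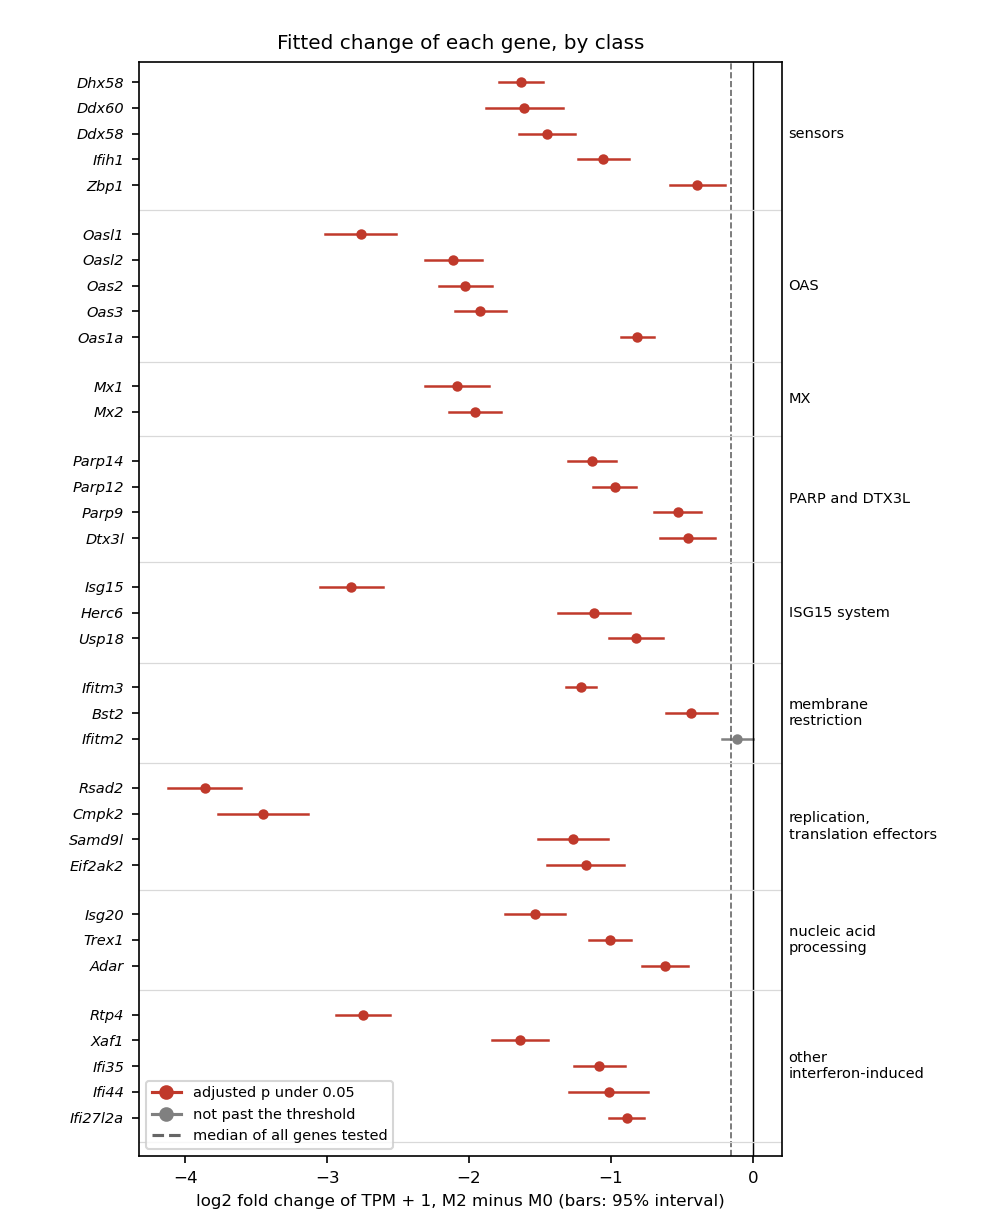
Fitted log2 fold change of TPM + 1, M2 minus M0, for each of the 34 genes by class (points, with 95% intervals), red where the adjusted p was under 0.05. The dashed line marks the median of all genes tested, -0.15, and the interval of Ifitm2 (grey) ends nearest to 0, at -0.0023.

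The ISG15 system was led by its modifier. ISG15 is a ubiquitin-like protein attached to other proteins after interferon, in mice mainly by the ligase HERC6, and removed by the protease USP18, which also blocks signalling at IFNAR2. Isg15 (mm10, chr4:156199424-156200818, minus strand) had 10.3, 9.75 and 11.1 TPM in M2 libraries, against 91.3, 81.9 and 67.9 TPM in M0 libraries. It was 7.75-fold lower in M2 (log2 fold change -2.83, SE 0.0980, adjusted p = 9.3e-09), and the nearest libraries of the groups were far apart. Usp18 had 19.3, 19.5 and 18.2 TPM in M2 libraries, against 39.3, 34.4 and 30.2 TPM in M0 libraries, a 1.82-fold lower mean (adjusted p = 1.4e-05). Herc6 averaged 4.85 ± 0.441 TPM in M2 and 11.8 ± 2.05 TPM in M0, 2.43-fold lower in M2 (adjusted p = 1.3e-05). In M2 the Usp18 transcript was above that of Isg15 in every library, and in M0 Isg15 was above Usp18 in every library.

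The membrane restriction factors were 3 of the 4 most abundant genes of the list in both groups, and their summed level in M2 was 63.5% of that in M0. IFITM proteins block fusion of enveloped viruses with endosomes, and BST2 (tetherin) holds budding virions on the cell surface. Ifitm3 (chr7:141009590-141010744, minus strand) had 221, 219 and 237 TPM in M2 libraries, against 549, 500.4 and 524 TPM in M0 libraries. It was 2.32-fold lower in M2 (log2 fold change -1.21, SE 0.0469, adjusted p = 9.5e-09). Ifitm2, its neighbour 53629 bases away on chromosome 7, had 240.2, 234 and 244 TPM in M2 libraries, against 276, 245 and 256 TPM in M0 libraries. The highest M2 library and the lowest M0 library nearly met, and the difference did not pass the threshold (log2 fold change -0.11, unadjusted 95% interval -0.22 to -0.0023, adjusted p = 0.0702). Its value was 0.06 after median scaling (adjusted p = 0.413), and without M0 replicate 2 it was -0.15 with an adjusted p = 0.00756. Ifitm2 was 51.5 ± 0.639% of the summed Ifitm2 and Ifitm3 level in M2 and 33.0 ± 0.340% in M0. Bst2 had 225, 235 and 237 TPM in M2 libraries, against 345, 272 and 330.4 TPM in M0 libraries, 1.36-fold lower in M2 (adjusted p = 0.0012).

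The largest falls of the list were in Rsad2 and Cmpk2. RSAD2 (viperin) converts CTP into a chain terminator of viral polymerases, and CMPK2 is a mitochondrial nucleotide kinase whose gene lies beside it. Rsad2 (chr12:26442743-26456452, minus strand) had 4.58, 5.51 and 5.28 TPM in M2 libraries, against 90.8, 102 and 73.2 TPM in M0 libraries. Its mean was 17.3-fold lower in M2 (SE of the log2 fold change 0.114, adjusted p = 7.7e-09), and every M2 library lay under every M0 library by a wide margin. Cmpk2 (chr12:26469215-26479837, plus strand) had 4.77, 6.31 and 6.88 TPM in M2 libraries, against 79.3, 82.5 and 63.9 TPM in M0 libraries, a 12.6-fold lower mean (adjusted p = 3.1e-07). The spans of the 2 genes are 12763 bases apart on chromosome 12, on opposite strands. Samd9l, a restriction factor of poxviruses, and Eif2ak2, which encodes the kinase PKR that stops translation on sensing double-stranded RNA, fell by less. Samd9l averaged 15.9 ± 0.994 TPM in M2 and 39.9 ± 6.97 TPM in M0 (2.52-fold lower in M2, adjusted p = 8.1e-06). Eif2ak2 averaged 13.9 ± 0.667 TPM in M2 and 33.2 ± 6.45 TPM in M0 (2.38-fold lower in M2, adjusted p = 3.5e-05).

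The genes of nucleic acid processing all fell. Isg20, a 3′ exonuclease of single-stranded RNA, had 1.26, 1.30 and 1.47 TPM in M2 libraries, against 6.31, 5.01 and 6.11 TPM in M0 libraries. It was 4.32-fold lower in M2 (log2 fold change -1.54, adjusted p = 3.3e-07), at 16 to 21 reads in an M2 library. Adar, which edits adenosine to inosine in double-stranded RNA and so marks it as self, averaged 19.4 ± 0.662 TPM in M2 and 30.3 ± 3.01 TPM in M0 (1.57-fold lower in M2, adjusted p = 4.1e-05). Trex1, the exonuclease that clears cytosolic DNA, averaged 37.3 ± 0.741 TPM in M2 and 76.1 ± 7.53 TPM in M0 (2.04-fold lower in M2, adjusted p = 4.6e-07). Its value is uncertain, because its span shares 1319 bases on the same strand with a readthrough entry, Atrip-trex1, that was counted separately.

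Of the remaining 5 genes, Rtp4 fell most. Rtp4, which encodes an interferon-induced zinc finger protein, had 10.1, 10.9 and 12.2 TPM in M2 libraries, against 79.1, 88.7 and 72.0 TPM in M0 libraries. It was 7.24-fold lower in M2 (log2 fold change -2.75, SE 0.0851, adjusted p = 1.9e-09), and the groups were far apart. Xaf1, a factor that opposes the apoptosis inhibitor XIAP, averaged 3.49 ± 0.468 TPM in M2 and 12.9 ± 0.735 TPM in M0 (3.71-fold lower in M2, adjusted p = 1.1e-07). Ifi35, an interferon-induced leucine zipper protein, averaged 21.3 ± 2.44 TPM in M2 and 46.0 ± 2.83 TPM in M0 (2.16-fold lower in M2, adjusted p = 1.3e-06). Ifi27l2a, a small hydrophobic interferon-induced protein, averaged 195 ± 10.4 TPM in M2 and 362 ± 22.7 TPM in M0 (1.86-fold lower in M2, adjusted p = 3.1e-07). Ifi44 was the least abundant of all 34, at 0.274 ± 0.0561 TPM in M2 and 1.60 ± 0.413 TPM in M0. Its mean was 5.84-fold lower in M2, from 9 to 14 reads in an M2 library, and its fitted log2 fold change of -1.02 (adjusted p = 5.2e-05) understates that ratio because of the pseudocount of 1. Ifi44 reached 1 TPM in M0 libraries alone, so that its fall was fixed by the filter.

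The order of the 34 genes by level differed between M2 and M0. Across them, Spearman's rho between mean M0 level and log2 fold change was 0.0451. Pearson's r, with the level taken as the log2 of the mean M0 TPM + 1, was 0.0613. Both are descriptions over genes of the same 6 libraries. The 4 most abundant genes in M0, Ifitm3, Ifi27l2a, Bst2 and Ifitm2, each kept at least 43.0% of the M0 mean. Rsad2 was the fifth most abundant of the 34 in M0 and stood at place 26 in M2, where its mean was within the spread of those of Mx1 and Cmpk2. Ifitm2, Bst2, Ifitm3 and Ifi27l2a held the first 4 places in both groups, in a different order. Of the 34 genes, 25 were left with at most 0.5 of their M0 mean and 13 with at most 0.25. The 13 include Mx2 and Ifi44, whose fall was fixed by the filter. How many of all genes tested reached these ratios was not counted, so these counts are no result about the 34 genes.

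Relatives and neighbours were compared in 10 pairs through the log2 ratio of their TPM + 1 in each library. With 3 libraries a group, the exact two-sided permutation test cannot give a p under 0.1, so no pair could pass the threshold. The ratio did not overlap between the groups in 8 of the 10 pairs, each with an exact p = 0.1 and an adjusted p = 0.125 over the pairs. How often the ratios of other gene pairs do not overlap was not counted, so this count is no result about these pairs. The ratio of Isg15 to Usp18 moved most, at -0.82 ± 0.139 on the log2 scale in M2 and 1.19 ± 0.0436 in M0. That of Ifitm3 to Ifitm2 was -0.08 ± 0.0367 in M2 and 1.02 ± 0.0220 in M0, so these neighbours stood at near equal levels in M2.

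Within the OAS class the ratio of Oas1a to Oas3 was 1.16 ± 0.0074 in M2 and 0.05 ± 0.130 in M0. Among the sensors, the ratio of Ifih1 to Ddx58 was higher by 0.40 in M2 and that of Ifih1 to Dhx58 by 0.58. The ratio of Rsad2 to Cmpk2 differed by -0.41, that of Oasl1 to Oasl2 by -0.65, and that of Parp14 to Parp12 by -0.16. For Parp14 to Parp12 the highest M2 library (0.73) nearly met the lowest M0 library (0.75). The sign for Oasl1 and Oasl2 depends on the pseudocount, since it was 0.27 with a pseudocount of 5. Mx1 and Mx2 differed by -0.13 and Parp9 and Dtx3l by -0.07, both with overlapping libraries and an exact permutation p = 0.3 (adjusted p = 0.3). The Mx1 and Mx2 value was 0.60 with a pseudocount of 0.1, so no direction is given for that pair.

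Other genes of the pathway were read from the same fit. Of the 6 Ifit genes, which encode proteins that bind foreign RNA, 5 were tested. Ifit1, Ifit2 and Ifit3 fell, with log2 fold changes of -4.02, -3.62 and -4.45. Ifit3b and Ifit1bl1 had values of -3.52 and -3.13, but reached 1 TPM in M0 libraries alone, so that their fall was fixed by the filter. The summed level of the 6 was 9.33 ± 1.25 TPM in M2 and 213 ± 28.0 TPM in M0, leaving 4.39% of the M0 level. For the 34 antiviral genes outside the family it was 49.1%, a sum in which the abundant genes weigh most. Single genes of the 34 kept from 5.77% (Rsad2) to 92.5% (Ifitm2) of their M0 mean, and Ifit2 kept 6.52%. None of 18 type I interferon genes was tested, and together they summed to 0.084 to 0.148 TPM in M2 libraries and 0 to 0.346 TPM in M0 libraries. Ifnb1, the gene of interferon beta, averaged 0.0290 ± 0.0502 TPM in M2, which was a single read in 1 library, and was listed at 0 in the M0 libraries.

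The receptor and ISGF3 genes moved in both directions. Irf9, which encodes a DNA-binding subunit of ISGF3, averaged 21.2 ± 1.87 TPM in M2 and 41.5 ± 2.10 TPM in M0 (log2 fold change -0.94, adjusted p = 1.1e-06). Stat2, which encodes its partner, averaged 31.0 ± 1.08 TPM in M2 and 54.9 ± 5.85 TPM in M0 (-0.80, adjusted p = 6.2e-06). Of the receptor chains Ifnar1 fell (26.6 ± 0.416 TPM in M2, 42.4 ± 3.63 TPM in M0; adjusted p = 8.8e-06) and Ifnar2 rose (141 ± 4.47 TPM in M2, 127 ± 5.91 TPM in M0; adjusted p = 0.0228). The kinase genes Jak1 and Tyk2 rose by 0.28 and 0.20 on the log2 scale (adjusted p = 0.00299 and 0.0091). Of these 6 genes, the same 3 fell and the same 3 rose after median scaling. Over all genes tested 45.3% fell and 17.7% rose, and 28.7% and 28.6% after median scaling.

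Of 12 sensing adaptors, kinases and IRF genes, 9 fell, 1 rose and 2 did not pass the threshold. After median scaling 7 fell and 3 rose. The shares over all genes tested were 45.3% and 17.7%, and 28.7% and 28.6% after median scaling. Irf7, the factor that amplifies interferon gene transcription, averaged 27.5 ± 1.82 TPM in M2 and 70.2 ± 10.1 TPM in M0 (-1.31, adjusted p = 2.0e-06). Cgas, the cytosolic DNA sensor, averaged 2.75 ± 0.2702 TPM in M2 and 7.62 ± 0.538 TPM in M0 (-1.20, adjusted p = 8.7e-07). Ikbke, a kinase of IRF3 and IRF7, had a log2 fold change of -0.71, and Myd88 and Traf3, adaptors of Toll-like receptor signalling, had -0.54 and -0.41. Ticam1, the TRIF adaptor, was the gene that rose, at 15.2 ± 0.427 TPM in M2 and 12.0 ± 0.864 TPM in M0 (adjusted p = 0.00199).

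Relatives from the same families as the 34 genes gave a further comparison. Of 37 such relatives 25 were tested, of which 16 fell, none rose and 9 did not pass, with a median log2 fold change of -0.28. After median scaling 10 fell and 4 rose. Of all genes tested 45.3% fell and 17.7% rose, and 28.7% and 28.6% after median scaling. Ifitm6 (0.482 ± 0.0939 TPM in M2, 2.57 ± 0.634 TPM in M0) was tested only because of its M0 level, with 3 to 5 reads in an M2 library. Of the others the largest falls were in Herc3 (2.31 ± 0.154 TPM in M2, 6.86 ± 0.617 TPM in M0) and in Oas1g (4.14 ± 0.437 TPM in M2, 10.5 ± 0.411 TPM in M0). Oas1b and Parp3 also fell, each with a log2 fold change of -1.01. The 9 that did not pass the threshold had log2 fold changes between -0.12 (Dtx2) and 0.13 (Parp2). Among them Eif2ak1, Eif2ak3, Herc1 and Parp6, relatives of Eif2ak2, Herc6 and the PARP genes, lay between -0.07 and 0.07. The 4 that rose after median scaling were Eif2ak1, Eif2ak3, Herc4 and Parp2 (adjusted p = 0.00906, 0.0251, 0.0192 and 0.00089). The median of the relatives, -0.28, lay between that of all genes tested, -0.15, and that of the 34 genes, -1.20.

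**Figure D3:**
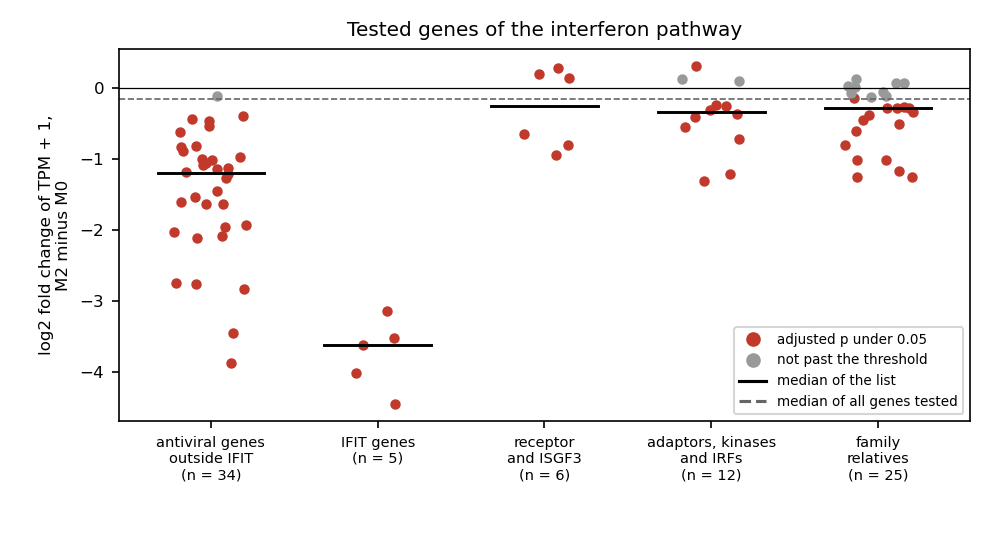
Log2 fold change of TPM + 1, M2 minus M0, of each tested gene (points, red where the adjusted p was under 0.05) in the 34 antiviral genes and in 4 other lists, with the median of each list (black bars) and of all genes tested (dashed line). The 5 Ifit genes lie between -4.45 and -3.13, 2 of them tested only through their M0 level, and the receptor and ISGF3 genes lie on both sides of 0.

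The spread between libraries was wider in M0. The median coefficient of variation of the 34 genes was 5.05% in M2 and 11.2% in M0, and it was larger in M0 for 27 of the 34. M0 replicate 3 was the lowest M0 library for 28 of the 34 genes (82.4%), against 39.8% of all genes tested. M0 replicate 1 was the highest for 20 of them (58.8%) and M0 replicate 2 for 14 (41.2%), against 24.2% and 52.1% of all genes tested. The place of M0 replicate 2 moved with transcript length: it was the lowest for 5 of 7 genes with transcripts under 1000 bases and the highest for 6 of 7 with transcripts of 5000 bases or more. Over all genes tested it was the lowest for 50.8% of transcripts under 1000 bases and the highest for 85.2% of those of 5000 bases or more. The part of transcript length in the M2 to M0 difference was not tested, and Spearman's rho between length and log2 fold change was -0.12 over the 34 genes and -0.11 over all genes tested.

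**Figure D4:**
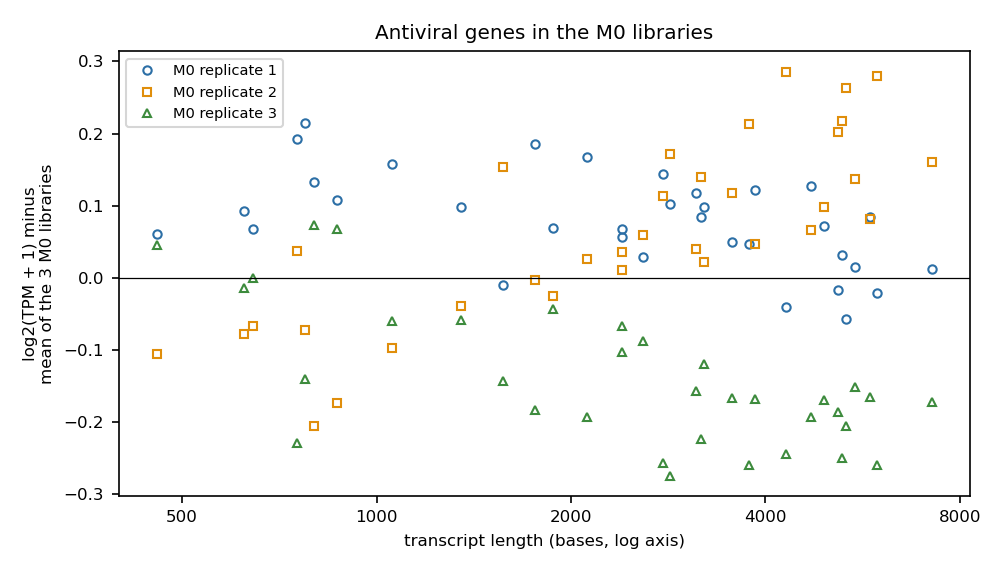
Deviation of each M0 library from the mean of the 3 M0 libraries, in log2(TPM + 1), for the 34 genes against transcript length in bases (log axis). M0 replicate 3 (triangles) is the lowest for 28 of 34 genes, and M0 replicate 2 (squares) is low for short and high for long transcripts.

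In the promoter windows, genes with the ISRE core did not form a group by size of change. The 11 genes with a match ranged from -3.86 (Rsad2) to -0.11 (Ifitm2) on the log2 scale, with a median of -1.21. The 13 genes without one ranged from -3.45 (Cmpk2) to -0.46 (Dtx3l), with a median of -1.12. Apart from the genes printed above, the core was found in the windows of Ddx58, Ifih1, Ddx60, Bst2 and Eif2ak2. The STAT dimer motif, TTC and GAA with any 3 bases between them (the same on both strands), was present in 7 of the 24 windows (29.2%), against 8.30% of all windows. The form preferred by STAT6, TTC and GAA with any 4 bases between them, was present in 3 of the 24 (12.5%), against 6.95% of all windows. A match is a description of these letters and not a bound site.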

How the data were processed

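Messenger RNA of 6 libraries (3 M2, 3 M0) was profiled by poly(A)-selected RNA sequencing, per the labels. The submitters' processing notes name STAR, bcl2fastq, DESeq2 and HOMER 4.11.1, and the build mm10. The deposited values are TPM per gene and library, counted by HOMER over RefSeq exons, per the file headers. The authors also deposited a comparison table with log2-scale values whose transformation is not named, a log2 fold change, and a p-value and adjusted p-value. It uses another transcript for 4515 of the 25124 genes (6 of the 34), so tables were joined by symbol, and 3 entries shifted by commas were realigned.

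TPM multiplied by length gave whole reads (within 0.1 read for every value under 1000 reads that was checked), so reads per gene could be recovered, and they were 89.8% to 90.9% of the tag totals in the headers. Per library, TPM summed to 542749 to 543854 in M2 and 548160 to 553186 in M0. Genes were tested with limma-trend (R 4.3.3, limma 3.58.1; robust, two-sided) on log2(TPM + 1), for genes of at least 1 TPM in at least 3 libraries, with group as the only term and a Benjamini-Hochberg adjusted p threshold of 0.05 over 11235 genes. Fold changes are M2 over M0, and fold ratios are ratios of mean TPM. The fit was checked on simulated reads with known changes. They were drawn with the same spread setting for every gene and library and no effect of transcript length. The check therefore does not give error rates under the wider spread of the M0 libraries. Alternatives were pseudocounts of 0.1 and 5, no filter, at least 50 reads, median-ratio scaling, limma-voom on recovered reads, the authors' log2-scale values, a replicate block and each library left out. Tables were made with Python 3.11.15 and pandas 2.3.3. All 34 genes are named, with up to 5 of each other interferon list by size of change and the receptor and ISGF3 genes, apart from 1 that is not reported here. A few others were named after their values were seen, namely Ticam1, Ifnb1, the marker and IL-4 response genes, and the relatives that did not pass. The 34 genes and the lists were chosen with earlier results of these data known.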

Additional observations from a re-analysis of the deposited data

How the results depend on the processing

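Of the 33 antiviral genes that fell, 33 also fell with pseudocounts of 0.1 and 5, with no filter, with limma-voom on recovered reads and with the authors' log2-scale values. With at least 50 reads required 32 fell, since Ifi44 was then not tested, and 32 fell after median scaling, where Zbp1 had -0.23 (adjusted p = 0.0572). With each library left out in turn, 33 to 34 fell and 0 rose, the 34 without M0 replicate 2, where Ifitm2 passed. Ifitm2 changed sign to 0.058 after median scaling and to 0.057 with the authors' log2-scale values. Over all genes tested, 3219 fell and 3211 rose after median scaling and 3323 fell and 3318 rose with the authors' log2-scale values, against 5088 that fell and 1983 that rose. Leaving out a library gave 4457 to 5239 that fell and 1743 to 2217 that rose. Of the pairs, Oasl1 to Oasl2 reversed to 0.27 with a pseudocount of 5 and Mx1 to Mx2 to 0.60 with one of 0.1. The pairs without overlap numbered 9 with either pseudocount, and 8 to 9 with a library left out. Same-numbered M2 and M0 libraries did not deviate together (correlations of 0.005, -0.0049 and -0.0428 over genes). With a replicate block 33 antiviral genes fell, and over all genes 4963 fell and 1953 rose. Ifi44, Isg20, Mx2 and Oasl1 rest on 9 to 40 reads in an M2 library.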
